A study of Mus musculus with 12 samples.

Results

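Tumor RNA of conditional knockout (cKO) mice was compared with tumor RNA of control (WT) mice. The comparison rests on the 6 tumor libraries of a bulk RNA sequencing series of 12, with 3 tumor cKO and 3 tumor WT libraries chosen by genotype and tissue alone. Of 33100 gene rows, 16253 passed the expression filter in these 6 libraries and were tested. The labels name both groups as natural killer (NK) cells, and the series describes them as sorted from tumors. The series title places the question in the antitumor function and the interleukin-15 (IL-15) receptor signalling of NK cells. The labels give the genotypes as control and cKO. They do not name the Cre driver, the tumor model, the age or sex of the mice, or whether replicates came from separate animals, so the p-values speak of the spread between the samples alone, which may be technical.

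NK cells are innate lymphocytes that kill transformed cells with perforin and granzymes and depend on IL-15, whose signal runs through the receptor chains Il2rb and Il2rg, the kinases Jak1 and Jak3, and Stat5. Tumors also hold macrophages, which can take an alternatively activated, tissue-repair state marked by mannose receptor, arginase and chitinase-like proteins. Cycling cells of any type raise genes for DNA replication and mitosis in a fixed order through the cell cycle.

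The tumor libraries did not carry the defining NK markers at the level the label implies. In the authors' deposited RPKM values (reads scaled by gene length and library depth), Ncr1, the NK receptor NKp46, ranged over 0.947 to 1.10 in the WT tumors and over 0.288 to 0.515 in the cKO tumors, against 61.7 to 134 in the 6 spleen libraries of the same series. Klrb1c, the NK1.1 antigen, was at 0.354 to 2.48 RPKM in the tumor libraries and 38.7 to 60.1 in spleen. Lyz2, the lysozyme gene of macrophages and other myeloid cells, ranged over 1429 to 5000 RPKM in the WT tumors and over 429 to 1087 in the cKO tumors, and was at 18.04 or less in spleen. Cd163, a macrophage receptor, was at 79.1 to 122 RPKM in the WT tumors, but at 1.71 to 2.21 in the cKO tumors, against 1.10 to 3.61 in spleen. The T-cell receptor gene Trac ranged over 31.7 to 40.9 RPKM in the WT tumors and over 75.2 to 115 in the cKO tumors. The libraries are therefore called tumor WT and tumor cKO libraries below. In bulk RNA, fewer cells of a type and less RNA per cell cannot be told apart.

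The 6 libraries held 15765906 to 37118494 counts, with 21503 to 25609 genes detected. Levels are CPM, counts scaled by library totals that are corrected for composition, and values are given for replicates 1, 2 and 3 in that order. Pearson correlations of log2 CPM were 0.935 to 0.971 among the WT libraries, 0.965 to 0.976 among the cKO libraries and 0.855 to 0.927 between the groups. Libraries stood apart on genes of other tissues. WT replicate 2 held 392 CPM of Myh6 and 226 CPM of Myh7, the heart myosins, against 0.594 CPM or less in every other tumor library. It also held 824 CPM of the collagen gene Col3a1, against 10.4 to 92.8 CPM in the others. In WT replicate 3, immunoglobulin genes took 1.25% of the counts, against 0.0240% to 0.0641% in the others. The summed macrophage identity markers were lowest in cKO replicate 3, at 1203 CPM, against 3364 and 3243 CPM in cKO replicates 1 and 2 and 8400 to 14589 CPM in WT.

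At an adjusted p under 0.05 in edgeR's quasi-likelihood test, 5383 of the 16253 genes were called, which is 33.1%. Of these, 2659 were higher in cKO (16.4% of the genes tested) and 2724 lower (16.8%). The counts of every gene list below are to be read against these shares. At least 2-fold higher and called were 1380 genes (8.49%), and at least 2-fold lower 1961 genes (12.1%). The 3 cKO libraries did not overlap the 3 WT libraries in 8456 genes (52.0%), so a lack of overlap alone was common here. The median log2 fold change over all genes tested was -0.06, with quartiles of -0.78 and 0.51. Without the composition factor the median was 0.07, 5368 genes were called and 59.7% of them were higher, against 49.4% with it. Leaving out 1 library at a time gave 2916 calls (without cKO replicate 3) to 6459 calls (without WT replicate 2), and 2920 without WT replicate 3, 3072 without cKO replicate 2, 3152 without WT replicate 1 and 3451 without cKO replicate 1.

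**Figure D1:**
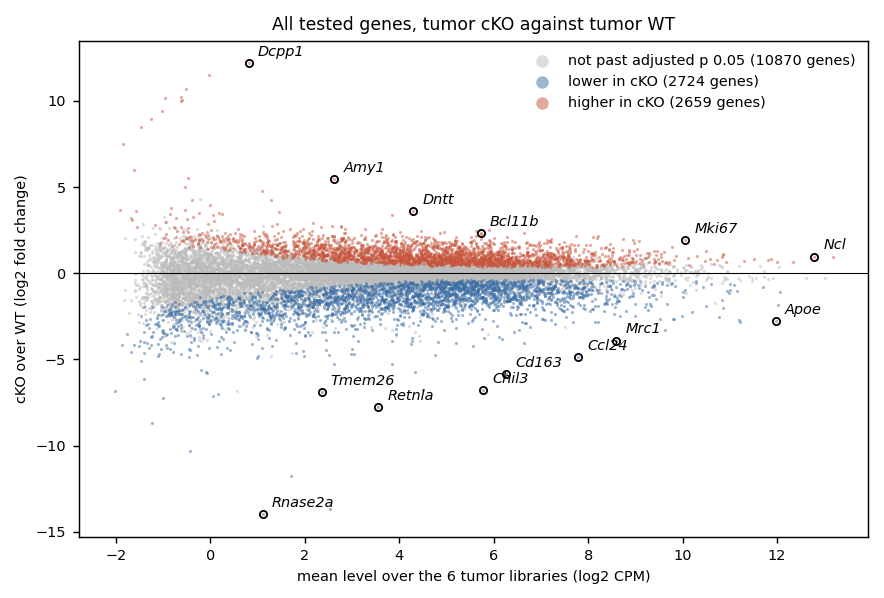
Each point is 1 of the 16253 tested genes, with its mean level over the 6 tumor libraries (log2 CPM) on the x axis and the cKO over WT log2 fold change on the y axis. The 2659 called higher and 2724 called lower are coloured, the circled genes are named (Ncl, nucleolin, belongs to the ribosome biogenesis list), and the far points at both ends are genes with no or almost no reads in 1 group.

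The 14 genes with the widest gap below the WT libraries included several markers of alternatively activated macrophages. Cd163, the haemoglobin scavenger receptor of tissue macrophages, was at 454, 607 and 712 CPM in WT and 10.2, 11.6 and 8.76 CPM in cKO. The change was -5.86 ± 0.25 (log2, SE) with an adjusted p of 0.000535, and the cKO libraries differed little from each other. Retnla, a secreted protein induced by interleukin-4, was at 93.8, 402 and 88.3 CPM in WT and 0.679, 1.59 and 0.529 CPM in cKO, a change of -7.77 ± 0.88. Every WT library stood far above every cKO library for both genes.

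Secreted factors were among the steepest falls. Ccl8, a chemokine that attracts monocytes, was at 99.1, 581 and 157 CPM in WT and 2.72, 3.55 and 1.44 CPM in cKO (log2 change -6.79 ± 0.84). Ccl24, an eosinophil-attracting chemokine, was at 1141, 1234 and 1684 CPM in WT and 83.4, 43.1 and 13.5 CPM in cKO (-4.86 ± 0.66). Chil3, a chitinase-like lectin, ranged from 169 to 1772 CPM in WT, highest in replicate 2, and from 3.70 to 10.7 CPM in cKO (-6.79 ± 1.06). Igf1, the insulin-like growth factor, was at 71.3, 307 and 108 CPM in WT and 6.70, 9.30 and 2.49 CPM in cKO (-4.73 ± 0.73).

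Enzymes and surface proteins followed, with smaller standard errors than those secreted factors in all but Ear2 (0.92). Alox15, the 12/15-lipoxygenase, was at 24.2, 26.3 and 24.1 CPM in WT and 0.679, 1.59 and 1.21 CPM in cKO (log2 change -4.44 ± 0.31). Tmem26, a membrane protein, was at 32.2, 65.4 and 65.1 CPM in WT and 0.594, 0.612 and 0.189 CPM in cKO (-6.90 ± 0.50). Fcgrt, the neonatal Fc receptor that recycles antibody and albumin, was at 55.0, 114 and 75.5 CPM in WT and 6.20, 5.44 and 2.68 CPM in cKO (-4.10 ± 0.41). Mrc1, the mannose receptor, was at 1190, 2019 and 1729 CPM in WT and 141, 149 and 38.1 CPM in cKO (-3.91 ± 0.54). The others were Ear2, Npl, Car4 and Hfe, with changes of -5.74, -4.72, -4.42 and -3.94. Ear2 belongs to a family of near-identical ribonucleases, whose reads could be split between copies. Except for Ear2 with no filter on low counts, the 14 kept their calls under every alternative tried.

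In 4 called genes the fall was to no reads at all in any cKO library. Rnase2a, an eosinophil-type ribonuclease of the same family as Ear2, had 8502 counts over the WT libraries and 0 over the cKO libraries, at least 2622-fold lower against the floor of 3 counts over the cKO group. Its WT levels were 25.3, 207 and 29.2 CPM, and without WT replicate 2 the bound was at least 603-fold lower. Msx3, a homeobox gene, had 433 counts in WT and 0 in cKO, and Cd209e, a DC-SIGN-like lectin, had 190 and 0. These genes were singled out after their values were seen, and could pass the expression filter only through the WT libraries. Genes without cKO reads that the filter left out are not counted here.

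**Figure D2:**
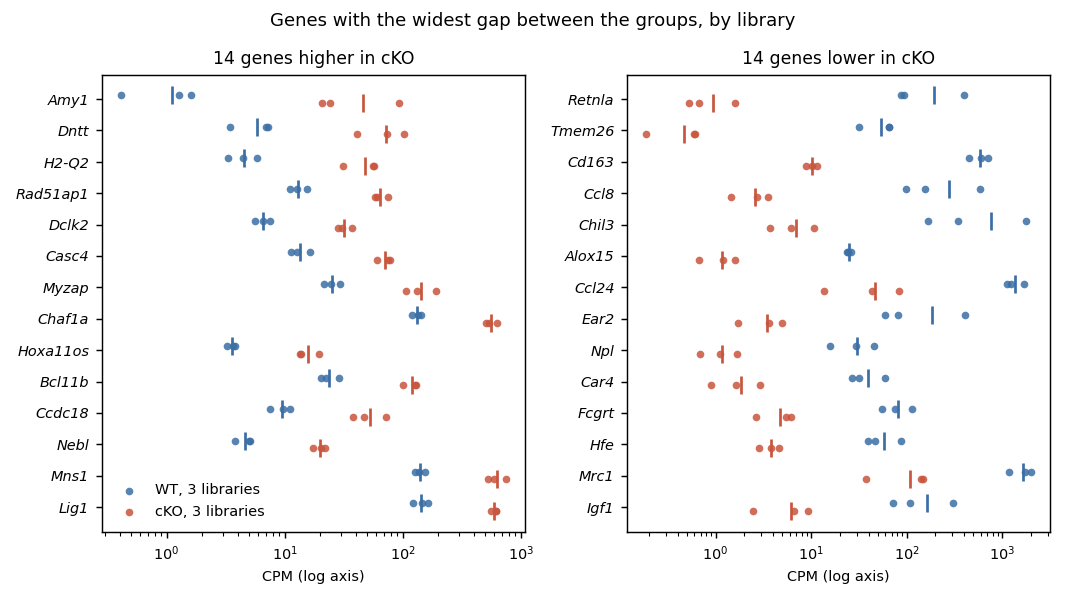
CPM on a log axis for the 14 genes per direction with the widest gap between the nearest libraries of the groups, 1 point per library and a tick at the group mean. In each gene all 3 WT points lie on 1 side of all 3 cKO points, from Lig1 (123 to 164 against 558 to 623 CPM) to Retnla (88.3 to 402 against 0.529 to 1.59 CPM).

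All 16 listed genes of alternative macrophage activation fell, with a median log2 fold change of -3.81 and a range from -7.77 to -1.73, against a median of -0.06 over all genes tested. Arg1, the arginase that depletes arginine, was at 7327, 5058 and 8034 CPM in WT and 1514, 1040 and 369 CPM in cKO (-2.80 ± 0.50). Il4ra, the receptor chain shared by interleukin-4 and interleukin-13, was at 333, 363 and 386 CPM in WT and 128, 109 and 49.7 CPM in cKO (-1.92 ± 0.33). Pdcd1lg2, the ligand PD-L2, was at 42.7, 115 and 66.6 CPM in WT and 7.60, 4.34 and 4.68 CPM in cKO (-3.75 ± 0.43). Clec10a, a galactose-binding lectin, fell by 3.01 on the log2 scale and Pparg, a lipid-sensing nuclear receptor, by 2.61. With 1 library left out, 13 to 15 members passed.

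Of 21 macrophage identity genes, 17 fell and none rose, with a median of -2.07. Csf1r, the receptor for the macrophage growth factor CSF1, was at 417, 654 and 532 CPM in WT and 186, 135 and 60.8 CPM in cKO (-2.07 ± 0.40). Spi1, the factor PU.1, was at 134, 144 and 150 CPM in WT and 54.2, 60.4 and 23.04 CPM in cKO (-1.64 ± 0.34). Of the 4 members that did not pass, Itgam had a change of -0.95 ± 0.44 (adjusted p = 0.132) and Lyz2 of -1.74 ± 0.58 (adjusted p = 0.0551). The falls within the list were therefore unequal, from -1.13 for Fcgr1 to -5.86 for Cd163. Fcgr1 was not called in 5 of the 6 fits with 1 library left out, where its highest adjusted p was 0.125 (without WT replicate 1). With 1 library left out, 14 to 16 members passed.

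Of 15 monocyte and inflammatory macrophage genes, 1 rose and 1 fell, under the shares of 16.4% and 16.8% over all genes tested, and the median was -0.04. Il1b was at 769, 384 and 496 CPM in WT and 1330, 867 and 306 CPM in cKO (0.60 ± 0.51, adjusted p = 0.387). Tnf was at 93.3, 40.1 and 88.6 CPM in WT and 171, 122 and 39.9 CPM in cKO (0.59 ± 0.53, adjusted p = 0.421). For both genes the groups overlapped and cKO replicate 3 was the lowest library.

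The member that rose was Il12b, a subunit of interleukin-12 and interleukin-23, at 1.88, 0.961 and 0.116 CPM in WT and 20.6, 7.09 and 6.76 CPM in cKO (3.53 ± 0.83, adjusted p = 0.0191). It did not pass without WT replicate 2 (adjusted p = 0.0563) or without cKO replicate 1 (0.0601). The member that fell was Ccr2, the receptor that brings monocytes into tissue, at 90.3, 129 and 97.2 CPM in WT and 37.1, 45.3 and 16.7 CPM in cKO (-1.68 ± 0.36). Among 26 interferon-stimulated genes, Irf9 fell (-0.66 ± 0.20, adjusted p = 0.0391) and none rose, with a median of -0.14. Irf9 did not pass in 5 of the 6 fits with 1 library left out, with an adjusted p up to 0.123 (without WT replicate 1).

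**Figure D3:**
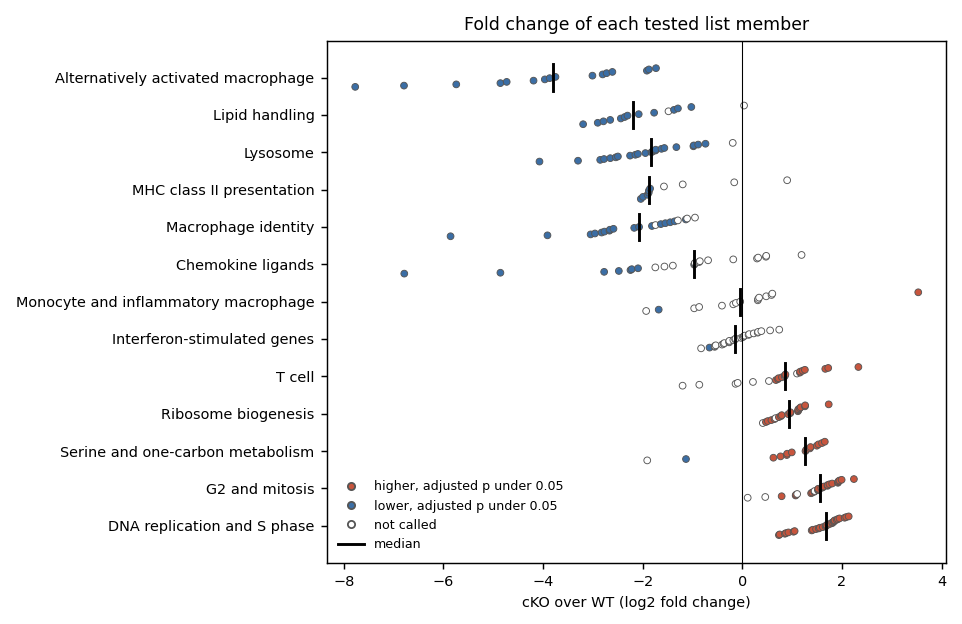
Each point is the log2 fold change of 1 tested member of a gene list, filled where the gene was called, with the list median as a vertical bar. The alternatively activated list lies wholly below 0 (median -3.81), the monocyte and inflammatory list is centred near 0 (-0.04), and the DNA replication list lies wholly above 0 (1.69).

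Lysosome and lipid genes fell nearly as a whole. Of 23 lysosome genes, 22 fell and none rose (median -1.82), and with 1 library left out 14 to 22 fell. Lgmn, the protease legumain, was at 700, 980 and 829 CPM in WT and 152, 139 and 56.2 CPM in cKO (-2.85 ± 0.38). Ctsl, cathepsin L, was at 1636, 4838 and 1862 CPM in WT and 379, 332 and 136 CPM in cKO (-3.30 ± 0.56). Tfeb, the transcription factor that drives lysosome genes, was the member that did not pass (-0.19 ± 0.19, adjusted p = 0.469). Of 14 lipid handling genes, 12 fell (median -2.19; 6 to 9 with 1 library left out). Apoe, the apolipoprotein E, was at 7510, 15064 and 11458 CPM in WT and 2270, 1905 and 751 CPM in cKO (-2.79 ± 0.46). Trem2, a lipid-sensing receptor of macrophages, was at 75.4, 206 and 91.2 CPM in WT and 20.3, 14.7 and 5.82 CPM in cKO (-3.20 ± 0.56).

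Receptors that take up antibody, complement, iron and dying cells gave fewer calls, all downward in the main test. In the Fc receptor list 6 of 8 tested members fell (median -1.64), among them Fcgr2b, the inhibitory receptor, at 620, 1248 and 874 CPM in WT and 246, 196 and 81.2 CPM in cKO (-2.39 ± 0.44). In the complement list 6 of 11 fell (median -1.82), and C3ar1, the receptor for the C3a fragment, fell by 1.94 on the log2 scale. In the iron and heme list 6 of 13 fell (median -1.07). Hmox1, the heme oxygenase, was at 674, 668 and 762 CPM in WT and 267, 233 and 104 CPM in cKO (-1.80 ± 0.34). Tfrc, the transferrin receptor of dividing cells, did not pass (0.96 ± 0.40, adjusted p = 0.104).

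In the efferocytosis list 5 of 14 fell (median -1.33), led by Gas6, a bridging ligand for dying cells, at 22.2, 91.7 and 37.6 CPM in WT and 3.01, 2.63 and 0.378 CPM in cKO (-4.68 ± 0.83). With no filter on low counts fewer members fell, with 9 in the macrophage identity list, 9 in alternative activation, 11 in lysosome, 5 in lipid handling, 2 in Fc receptors, 2 in complement and 0 in efferocytosis. Csf1r, Arg1, Ctsl, Trem2, Fcgr2b, Gas6, Pf4 and Rnase2a were among the genes not called in that fit. With 1 library left out the efferocytosis list held 1 to 4 falls, complement 2 to 5 and iron and heme 4 to 6. Each of these lists held up to 1 rise in those fits. Without WT replicate 2 and cKO replicate 3 together, 3 efferocytosis genes rose and 8 fell (median -0.83). In that fit 1 complement gene rose and 6 fell (median -0.83), and 1 iron and heme gene rose and 8 fell (median -0.86).

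Of 10 MHC class II genes 6 fell (median -1.86), and these were the classical chains and their loading factors. H2-Ab1 was at 6250, 9043 and 9204 CPM in WT and 3157, 2300 and 1331 CPM in cKO (-1.85 ± 0.34). Cd74, the invariant chain, was at 2961, 4902 and 3928 CPM in WT and 1292, 1044 and 535 CPM in cKO (-2.04 ± 0.35). Of 20 class I genes 6 fell and 2 rose (median -0.30), with 1 to 6 falls when 1 library was left out. Rises in class I were under the 16.4% over all genes tested. H2-T23, which presents the ligand of inhibitory NK receptors, was at 237, 291 and 241 CPM in WT and 151, 130 and 102 CPM in cKO (-1.004 ± 0.18), while B2m had a change of -0.33 ± 0.17 (adjusted p = 0.166). H2-Q2 rose from 4.48, 5.85 and 3.30 CPM to 55.9, 31.3 and 56.7 CPM (3.39 ± 0.32), but H2-Q genes are near-identical copies and their reads cannot be assigned with certainty.

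**Figure D4:**
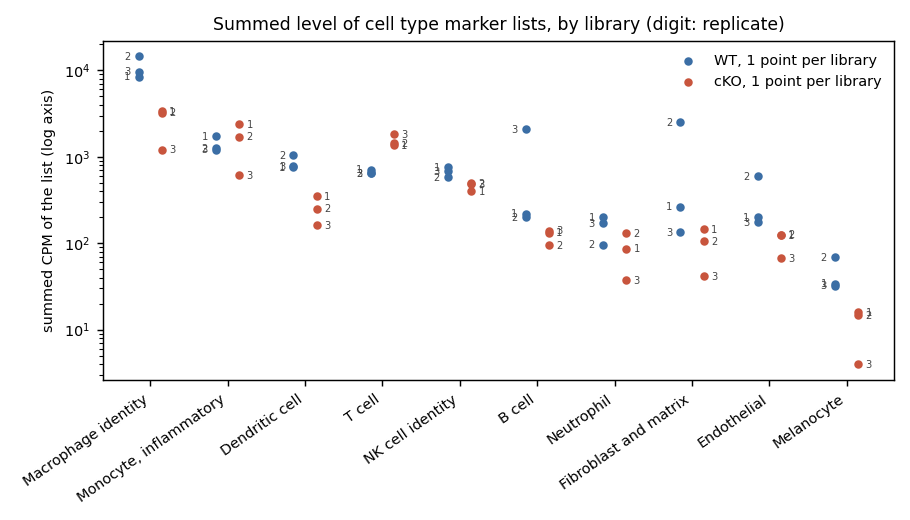
Summed CPM (log axis) of 10 cell type marker lists in each tumor library, with the replicate number beside each point. Macrophage, dendritic cell, NK cell and melanocyte sums are lower in all 3 cKO libraries and T cell sums higher. The NK cell sums include Nfil3, which macrophages also use, and without it they overlap between the groups. Little of the melanocyte sums is the pigment gene Pmel. Single WT libraries stand out for the B cell list (replicate 3, 2071 CPM) and the fibroblast list (replicate 2, 2515 CPM).

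T-cell genes were higher in cKO. Of 21 listed genes 13 rose and none fell, with a median of 0.85, and 9 to 12 rose with 1 library left out. Bcl11b, which commits progenitors to the T lineage, was at 28.7, 22.3 and 20.4 CPM in WT and 131, 100 and 128 CPM in cKO (2.33 ± 0.19, adjusted p = 0.00379). Lat, an adaptor of the T-cell receptor, was at 62.4, 67.2 and 65.7 CPM in WT and 192, 182 and 246 CPM in cKO (1.67 ± 0.15). Tcf7, the factor TCF1, was at 86.4, 109 and 82.4 CPM in WT and 282, 275 and 360 CPM in cKO (1.72 ± 0.18). Cd3d, a chain of the receptor complex, rose from 45.9, 37.7 and 39.7 CPM to 79.5, 94.4 and 101 CPM (1.16 ± 0.15). Cd3e rose by 0.73 ± 0.21 (adjusted p = 0.0352), but passed in 1 of the 6 fits with 1 library left out, with an adjusted p up to 0.107 (without WT replicate 3).

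The coreceptors did not pass. Cd4 was between 3.55 and 12.995 CPM and Cd8a between 0.439 and 3.32 CPM over the 6 libraries (adjusted p = 0.883 and 0.896). Of 9 genes of the immature T lineage, 3 rose and 3 fell (median 0.41), and 2 to 3 rose and 1 to 2 fell with 1 library left out. Dntt, the terminal transferase that adds bases at receptor joints, was at 6.97, 7.19 and 3.48 CPM in WT and 104, 40.7 and 73.5 CPM in cKO (3.62 ± 0.43). Arpp21, a thymocyte gene, was at 17.7, 30.7 and 16.9 CPM in WT and 127, 96.4 and 131 CPM in cKO (2.44 ± 0.27). The other genes of receptor rearrangement were near 0, with group means of Rag1 at 0.0183 and 0.0252 CPM and of Ptcra at 0.205 and 0.0408 CPM in WT and cKO. Notch1, which signals T-cell fate, fell from 85.1, 77.8 and 69.1 CPM to 32.8, 39.8 and 19.2 CPM (-1.34 ± 0.27). Dntt did not pass in the fit without WT replicate 2 and cKO replicate 3 together.

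Of 24 tested NK identity genes 10 fell and 2 rose (median -1.45), with 15 falls without WT replicate 2, 3 without WT replicate 1, WT replicate 3 or cKO replicate 3, 4 without cKO replicate 2 and 5 without cKO replicate 1. Ncr1 was at 1.77, 1.70 and 1.57 CPM in WT and 0.764, 0.428 and 0.642 CPM in cKO (-1.44 ± 0.41, adjusted p = 0.0337), and did not pass in any of the 6 fits with 1 library left out (adjusted p up to 0.106). Klrb1c was at 7.69, 1.67 and 3.25 CPM in WT and 2.12, 1.41 and 0.982 CPM in cKO, which overlapped (adjusted p = 0.102). Nfil3, a factor of NK development that macrophages also use, was at 244, 338 and 235 CPM in WT and 82.5, 96.8 and 61.9 CPM in cKO (-1.76 ± 0.22). It was a large part of the list's sums in WT, which were 752, 584 and 679.5 CPM, against 400, 490 and 479 CPM in cKO. With Nfil3 taken out of the sums the groups overlapped, and WT replicate 2 was the lowest library. Klra1 and S1pr5 rose, a share of the list under the 16.4% over all genes tested. Klra1 went from 16.5, 17.5 and 15.4 CPM to 37.7, 50.9 and 65.9 CPM (1.64 ± 0.22). S1pr5, a lipid receptor of migrating NK cells, rose from 95.8, 79.0 and 99.3 CPM to 161, 208 and 248 CPM (1.17 ± 0.19). Klra genes are close copies of each other, so reads may be split among them.

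Of 17 tested cytotoxic genes 6 fell and 1 rose (median -0.96), and 2 (without cKO replicate 2) to 12 (without WT replicate 2) fell with 1 library left out. The share that rose was under the 16.4% over all genes tested. Prf1, perforin, was at 25.5, 7.99 and 18.3 CPM in WT and 6.87, 10.5 and 8.65 CPM in cKO (-0.99 ± 0.41, adjusted p = 0.104). Gzmb, granzyme B, was at 99.7, 23.03 and 73.4 CPM in WT and 23.1, 32.4 and 17.6 CPM in cKO (-1.42 ± 0.51, adjusted p = 0.0677). In both, WT replicate 2 lay among the cKO libraries. Fasl, the death ligand, was at 8.69, 3.51 and 7.13 CPM in WT and 1.61, 2.08 and 1.40 CPM in cKO (-1.92 ± 0.40), and Ctsw, a protease of killer cells, fell by 1.73 on the log2 scale. Ifng, interferon gamma, was at 4.10, 1.37 and 2.03 CPM in WT and 3.61, 3.36 and 3.14 CPM in cKO (0.44 ± 0.44, adjusted p = 0.46).

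In the IL-15 receptor and JAK-STAT5 list 9 of 24 genes fell and 3 rose (median -0.53), and 4 to 9 fell with 1 library left out. The share that rose was under the 16.4% over all genes tested. Il2rb, the signalling chain, was at 101, 27.2 and 81.3 CPM in WT and 21.9, 32.8 and 26.4 CPM in cKO (-1.37 ± 0.45, adjusted p = 0.0526), and its groups overlapped at WT replicate 2. It passed in 5 of the 15 alternatives, among them DESeq2 (adjusted p = 0.00742) and the edgeR fit without WT replicate 2 (0.00189), and over all of them the adjusted p ran from 0.000315 to 0.203. Il2rg, the common gamma chain, was at 109, 118 and 91.9 CPM in WT and 68.1, 58.4 and 40.6 CPM in cKO (-0.93 ± 0.21, adjusted p = 0.0171), and did not pass without WT replicate 1 (0.0536) or cKO replicate 2 (0.0601). Il15ra, which presents IL-15, was at 7.25, 5.11 and 4.87 CPM in WT and 9.38, 8.56 and 8.16 CPM in cKO (0.60 ± 0.23, adjusted p = 0.0862).

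Below the receptor, Jak1 fell from 290, 299 and 271 CPM to 168, 155 and 146 CPM (-0.87 ± 0.12). The STAT5-induced feedback genes Cish and Socs2 fell by 1.72 and 1.81 on the log2 scale, Cish from 53.02, 47.5 and 39.1 CPM to 21.3, 12.7 and 8.31 CPM. Stat5a and Stat5b had changes of -0.04 ± 0.15 and -0.01 ± 0.13. Ptpn6, the phosphatase SHP-1, was at 355, 416 and 309 CPM in WT and 356, 495 and 431 CPM in cKO (0.25 ± 0.18, adjusted p = 0.316). The members that rose were Mtor and the growth genes Myc and Ccnd2, Myc from 20.5, 24.98 and 22.7 CPM to 45.5, 39.1 and 46.8 CPM (0.95 ± 0.15). Mtor (0.54 ± 0.14, adjusted p = 0.0271) passed in 1 of the 6 fits with 1 library left out, with an adjusted p up to 0.0825 (without WT replicate 1). The summed markers of macrophages and T cells differed between the groups beside this list. Those of NK cells did so with Nfil3 among them, and overlapped without it. The part of these markers in the list's changes was not tested.

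Of 14 inhibitory receptors and ligands 7 fell and 2 rose, against 16.8% and 16.4% of all genes tested (median -1.32; 3 to 7 lower with 1 library left out). Pdcd1, the receptor PD-1, was at 56.2, 51.1 and 53.9 CPM in WT and 131, 153 and 182 CPM in cKO (1.53 ± 0.15, adjusted p = 0.00392). Btla, another inhibitory receptor of lymphocytes, rose from 2.27, 3.27 and 4.0004 CPM to 7.68, 7.46 and 11.1 CPM (1.46 ± 0.30). Vsir, the checkpoint VISTA, fell from 119, 141 and 122 CPM to 43.4, 50.03 and 21.0 CPM (-1.74 ± 0.31). Tigit was at 29.8, 9.44 and 21.3 CPM in WT and 8.91, 10.4 and 11.7 CPM in cKO (adjusted p = 0.1, not called).

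Of 14 TGF-beta pathway genes 9 fell and none rose (median -0.91; 4 to 9 with 1 library left out). Tgfbr2, the ligand-binding receptor, was at 82.2, 102 and 75.2 CPM in WT and 33.1, 30.3 and 22.3 CPM in cKO (-1.60 ± 0.20). The ligand Tgfb1 fell from 246, 215 and 240 CPM to 134, 114 and 92.4 CPM (-1.04 ± 0.17), and the inhibitor Smad7 by 1.67 on the log2 scale. The signal transducers Smad2, Smad3 and Smad4 did not pass. Of 22 chemokine ligands 8 fell and none rose (median -0.96; 5 to 7 with 1 library left out, 3 with no filter on low counts). Pf4, a platelet and macrophage chemokine, fell from 168, 190 and 179 CPM to 31.1, 38.7 and 8.99 CPM (-2.77 ± 0.49). Cxcl9 and Cxcl10, induced by interferon gamma, did not pass (adjusted p = 0.132 and 0.611). Of 18 Toll-like and NOD-like receptor genes 8 fell (median -0.85), 2 to 6 with 1 library left out and 5 without the composition factor, and Tlr4, the endotoxin receptor, fell from 28.9, 27.5 and 33.6 CPM to 8.27, 9.72 and 4.798 CPM (-1.99 ± 0.27).

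All 29 listed DNA replication genes were higher in cKO, against 16.4% of all genes tested, with a median of 1.69 and a range from 0.73 to 2.14. In all 29 the groups did not overlap, against 52.0% of all genes tested. Chaf1a, a histone chaperone of replicating DNA, was at 143, 134 and 121 CPM in WT and 544, 510 and 635 CPM in cKO (2.09 ± 0.15, adjusted p = 0.00379). Lig1, the ligase that joins Okazaki fragments, was at 164, 123 and 145 CPM in WT and 617, 558 and 623 CPM in cKO (2.05 ± 0.16). Mcm5, a subunit of the replicative helicase, was at 79.9, 87.1 and 69.9 CPM in WT and 275, 242 and 329 CPM in cKO (1.84 ± 0.17). Cdc6, which loads that helicase, was at 12.01, 19.4 and 10.6 CPM in WT and 50.4, 51.1 and 61.4 CPM in cKO (1.95 ± 0.25). Between 27 and 29 of the list passed with 1 library left out.

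E2F factors, the transcription factors that switch on replication genes at the start of S phase, bind words of the form searched here in the 250 bases before each gene's start in the RefSeq promoter table (GRCm38.p6). The words were TTTCCCGC, TTTGGCGC, TTTCGCGC and TTTGCCGC on either strand. Of 25 replication genes with a promoter in the table, 6 held at least 1 word (24%), against 347 of the 10484 promoters matched to tested genes (3.31%), 5.32% of those called higher and 2.55% of those called lower. Shares were similar in the DNA repair list (4 of 16, 25%) and in the lipid handling list (2 of 10, 20%), whose genes fell. A match describes the letters and does not show binding. The stretches below are from 4 of the 6 replication promoters with a word. Each is the 100 bases with the most words nearest the start, 5′ to 3′ on the gene's strand with the words in capitals. They were chosen after the shares were seen. They lie at chr8:75109356-75109455 on the plus strand (Mcm5), chr1:128359716-128359815 on the minus strand (Mcm6), chr11:98908013-98908112 on the plus strand (Cdc6) and chrX:93632194-93632293 on the minus strand (Pola1), and in Mcm5 and at the start of Mcm6 words on opposite strands overlap.
Mcm5: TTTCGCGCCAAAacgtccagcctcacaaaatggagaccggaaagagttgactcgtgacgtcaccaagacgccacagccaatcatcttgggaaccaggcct
Mcm6: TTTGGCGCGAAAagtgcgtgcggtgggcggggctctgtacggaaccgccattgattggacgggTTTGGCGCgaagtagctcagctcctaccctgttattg
Cdc6: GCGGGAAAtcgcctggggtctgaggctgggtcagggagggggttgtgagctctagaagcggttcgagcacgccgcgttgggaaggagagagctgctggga
Pola1: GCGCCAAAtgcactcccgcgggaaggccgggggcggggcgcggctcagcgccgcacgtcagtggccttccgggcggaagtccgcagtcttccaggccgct

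Mcm6, another helicase subunit, was at 101, 128 and 91.7 CPM in WT and 275, 247 and 334 CPM in cKO (1.42 ± 0.18). Pola1, the polymerase that starts each strand, was at 35.5, 48.4 and 34.7 CPM in WT and 133, 111 and 150 CPM in cKO (1.73 ± 0.19). CCAAT, on either strand, was in 18 of 21 promoters of the G2 and mitosis list (85.7%), against 36% of all, and was also in most promoters of lists of other functions, such as MHC class II (7 of 7) and cholesterol synthesis (9 of 10). In the mitosis list the cell cycle homology words TTTGAA and TTCGAA were in 8 of 21 (38.1%), against 12.7%. Among lists with promoters for at least 80% of their members, the largest ratio to the share of all promoters was for the PU.1 core GAGGAAGT in the Fc receptor list. It was in 2 of 8 promoters (25%), against 2.73% of all. Among lists with promoters for fewer members, it was also in 2 of 8 of the neutrophil list. The inhibitory receptor list held it in 2 of 10 (20%). By the rule fixed for promoters, the called gene of these, Fcgr4, is shown over chr1:171018826-171018925 on the plus strand, 5′ to 3′, with the word (here on the opposite strand) in capitals.
Fcgr4: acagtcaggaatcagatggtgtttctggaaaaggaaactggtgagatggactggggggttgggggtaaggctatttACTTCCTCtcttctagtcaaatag

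Fcgr4, an activating antibody receptor of myeloid cells, was at 21.8, 48.9 and 18.9 CPM in WT and 14.004, 7.95 and 3.17 CPM in cKO (-1.84 ± 0.58, adjusted p = 0.0478). It passed in 1 of the 6 fits with 1 library left out, with an adjusted p up to 0.147 (without WT replicate 2). The other promoter with the word was that of Fcrl1, which did not pass (adjusted p = 0.26).

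Mitotic genes rose in 22 of 26 cases and fell in none (median 1.55; 18 to 26 with 1 library left out). Mki67, the proliferation antigen Ki-67, was at 530, 696 and 430 CPM in WT and 2173, 1776 and 2357 CPM in cKO (1.93 ± 0.22). Top2a, the topoisomerase that untangles replicated DNA, was at 202, 299 and 151 CPM in WT and 889, 741 and 967 CPM in cKO (1.99 ± 0.27). Cdk1, the mitotic kinase, was at 20.9, 24.0 and 12.2 CPM in WT and 62.7, 63.1 and 66.6 CPM in cKO (1.75 ± 0.25). The 4 members that did not pass included Aurka (0.11 ± 0.38, adjusted p = 0.845) and Ube2c (0.46 ± 0.50, adjusted p = 0.5).

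Among 22 E2F and cyclin genes 15 rose and 1 fell (median 1.10; 11 to 15 higher with 1 library left out). Ccne1, cyclin E1, rose from 17.6, 29.4 and 13.1 CPM to 64.8, 70.9 and 87.8 CPM (1.89 ± 0.31), and Cdk6, a G1 kinase, from 97.7, 106 and 88.3 CPM to 227, 254 and 322 CPM (1.46 ± 0.17). The member that fell was the inhibitor Cdkn1a, p21, from 182, 168 and 173 CPM to 95.6, 91.0 and 68.9 CPM (-1.03 ± 0.16). Of 21 DNA repair and checkpoint genes 17 rose and none fell (median 1.48; 14 to 19 with 1 library left out). Rad51ap1, a factor of homologous recombination, was at 12.6, 15.5 and 11.0 CPM in WT and 60.5, 58.2 and 75.2 CPM in cKO (2.31 ± 0.19). Xrcc6, the end-binding protein Ku70, was at 43.9, 55.8 and 36.5 CPM in WT and 246, 176 and 257 CPM in cKO (2.32 ± 0.22), while Xrcc4 of the same pathway did not pass (adjusted p = 0.412).

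Ribosome biogenesis genes rose in 18 of 20 cases (median 0.94; 11 to 18 with 1 library left out). Dkc1, which modifies ribosomal RNA, was at 32.6, 40.4 and 27.3 CPM in WT and 110, 98.7 and 125 CPM in cKO (1.73 ± 0.18). Npm1, nucleophosmin, was at 1377, 1308 and 1306 CPM in WT and 2411, 2328 and 2827 CPM in cKO (0.92 ± 0.15). In the serine and one-carbon list 13 of 15 rose and 1 fell (median 1.27; 8 to 13 higher with 1 library left out). Phgdh, the first enzyme of serine synthesis, was at 109, 136 and 111 CPM in WT and 349, 325 and 449 CPM in cKO (1.66 ± 0.18). Shmt2, which feeds serine into mitochondrial folate, rose from 102, 135 and 97.3 CPM to 323, 282 and 409 CPM (1.6003 ± 0.20).

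The other metabolic lists were mixed. Of 16 cholesterol genes 7 rose and 1 fell (median 0.75; 2 to 11 higher with 1 library left out). Of 26 oxidative phosphorylation genes 9 rose and none fell (median 0.30; 4 to 13 with 1 library left out). Of 19 glycolysis genes 3 rose and 4 fell (median -0.09), close to the shares over all genes tested, and 1 to 5 rose and 0 to 5 fell with 1 library left out. Within that list the glucose transporter Slc2a3 rose from 118, 139 and 117 CPM to 290, 276 and 352 CPM (1.30 ± 0.15). Its relative Slc2a1 was at 175, 154 and 167 CPM in WT and 104, 89.2 and 57.8 CPM in cKO (-0.98 ± 0.22, adjusted p = 0.0164), and missed the threshold without WT replicate 1 (0.0541), WT replicate 3 (0.052) or cKO replicate 2 (0.0567).

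**Figure D5:**
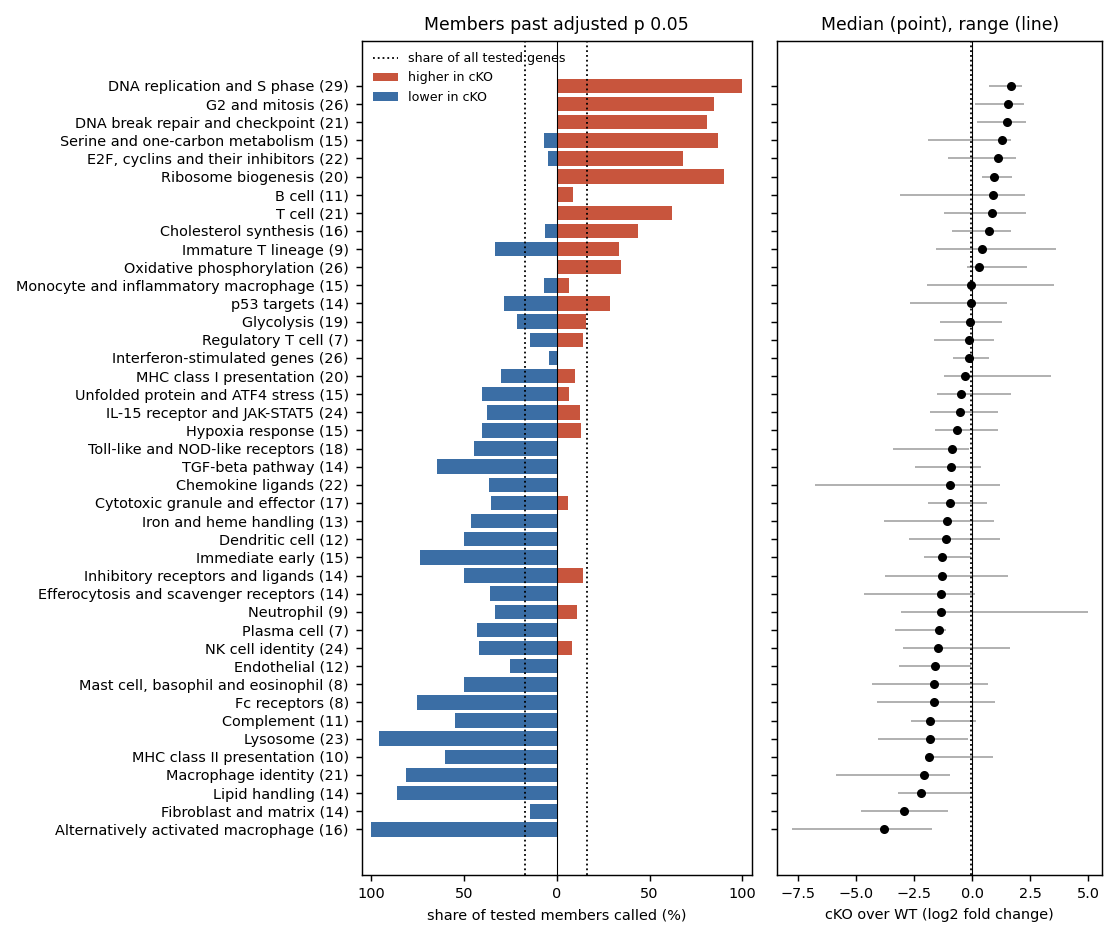
Left, the share (%) of tested members that was called, for each gene list with more than 5 of them, higher (right of 0) or lower (left of 0) in cKO, with dotted lines at the shares over all genes tested (16.4% and 16.8%) and the number of tested members in brackets. Right, the median and range of the members' log2 fold changes, ordered by the median, from -3.81 for alternatively activated macrophages to 1.69 for DNA replication.

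Of 15 immediate early genes 11 fell and none rose (median -1.30; 3 to 10 with 1 library left out), with Nr4a2, an orphan nuclear receptor, down from 223, 361 and 181 CPM to 69.7, 79.1 and 32.8 CPM (-2.08 ± 0.39). Nr4a1, a gene of recent receptor signalling, did not pass (-0.14 ± 0.20, adjusted p = 0.619). In the unfolded protein and ATF4 list 6 of 15 fell and 1 rose (median -0.49; 4 to 8 lower with 1 library left out). The chaperone Hspa5 fell from 1884, 1632 and 2005 CPM to 1078, 1063 and 1006 CPM (-0.81 ± 0.14), and the member that rose was the asparagine synthetase Asns (1.68 ± 0.25). In the hypoxia list 6 of 15 fell and 2 rose (median -0.68; 3 to 6 lower with 1 library left out). In this list and the one before, the share that rose was under the 16.4% over all genes tested. Vegfa, the endothelial growth factor, fell from 1187, 1219 and 1127 CPM to 520, 466 and 290 CPM (-1.47 ± 0.23), while Egln3, an oxygen sensor, rose from 100, 112 and 99.9 CPM to 171, 232 and 278 CPM (1.12 ± 0.19). Among 14 p53 targets 4 rose and 4 fell (median -0.05), against 16.4% and 16.8% of all genes tested, and 2 to 5 rose and 3 to 5 fell with 1 library left out.

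The widest gap upward belonged to Amy1, the salivary amylase, at 1.27, 0.412 and 1.62 CPM in WT and 93.4, 20.9 and 24.2 CPM in cKO (5.47 ± 0.82, adjusted p = 0.00648). Other genes of salivary secretion stood with it, gathered after their values were seen. Smr3a, a salivary peptide, had 0 counts over the WT libraries and was at 10.4, 2.81 and 4.004 CPM in cKO, at least 143-fold higher against the floor of 3 counts over the WT group, or at least 84.9-fold higher without cKO replicate 1. Prh1, a proline-rich salivary protein, had 0 counts in WT and was at 14.5, 2.57 and 2.76 CPM in cKO, and Bpifa2 had 0 counts in WT and was at 21.1, 2.20 and 3.55 CPM. Dcpp1, a secreted salivary protein, had 2 counts in WT and was at 460, 6.85 and 5.97 CPM in cKO.

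The 19 salivary genes summed to 3.54, 82.3 and 3.94 CPM in WT and 962, 71.2 and 109 CPM in cKO, so cKO replicate 1 stood apart. Nearly all of the sum of WT replicate 2 was Mucl2, at 77.3 CPM. Of 11 tested, 9 rose and none fell, against 16.4% higher among all genes tested. The list was gathered after genes without reads in WT were seen, so this count was partly set by the choice. Smr3a, Prb1, Prh1, Bpifa2 and Chia1 had no reads in WT and could pass the expression filter only through the cKO libraries. Prb1 and Dcpp1 did not pass without WT replicate 1 (adjusted p = 0.0588 and 0.0621), WT replicate 2 (0.0882 and 0.0799) or WT replicate 3 (0.0605 and 0.0799), and Bpifa2 did not without WT replicate 2 (0.0518). Dcpp2 also missed the threshold without WT replicate 1 (0.0759), WT replicate 2 (0.103) or WT replicate 3 (0.0982). Car6, a secreted carbonic anhydrase, passed in 1 of the 6 such fits, with an adjusted p up to 0.109 (without cKO replicate 1). Amy1 passed in all 6 such fits, and not in the fit without both WT replicate 2 and cKO replicate 3. The part of salivary RNA in other results was not tested.

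Other genes with a wide upward gap belonged to none of the lists. Casc4 was at 12.8, 16.4 and 11.2 CPM in WT and 74.6, 60.2 and 77.6 CPM in cKO (2.39 ± 0.20). Dclk2, a microtubule-associated kinase, was at 6.53, 7.58 and 5.57 CPM in WT and 30.5, 28.6 and 37.1 CPM in cKO (2.28 ± 0.20). Mns1, a cilium structural protein, was at 155, 127 and 137 CPM in WT and 599, 529 and 749 CPM in cKO (2.16 ± 0.18). Myzap, Ccdc18, Hoxa11os and Nebl had changes of 2.52, 2.47, 2.13 and 2.10. Hoxa11os is antisense to Hoxa11, and with the strand setting of the counting unknown its reads cannot be told from those of its partner. All of these kept their calls under every alternative tried.

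Other cell types differed less evenly. Of 14 fibroblast and matrix genes 2 fell, against 16.8% of all genes tested, and 0 to 5 fell with 1 library left out. The list's median was -2.96, but -0.80 without WT replicate 2 and -0.36 without WT replicate 2 and cKO replicate 3. The list summed to 264, 2515 and 135 CPM in WT and 146, 106 and 41.8 CPM in cKO. Col3a1 was at 92.8, 824 and 42.4 CPM in WT and 37.9, 21.4 and 10.4 CPM in cKO (-3.78 ± 1.15, adjusted p = 0.0424), and passed in 1 of the 6 fits with 1 library left out (adjusted p = 0.104 without WT replicate 2, and up to 0.142). Of 12 endothelial genes 3 fell (median -1.61; median -0.28 without WT replicate 2, and 0.30 without WT replicate 2 and cKO replicate 3). Of 12 dendritic cell genes 6 fell (median -1.12; 2 to 6 with 1 library left out), with Batf3, a factor of cross-presenting dendritic cells, down from 27.0, 38.5 and 27.5 CPM to 4.92, 7.28 and 2.72 CPM (-2.65 ± 0.37).

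Of 8 mast cell, basophil and eosinophil genes 4 fell (median -1.64; 1 to 4 with 1 library left out), led by Siglecf, an eosinophil and macrophage lectin (-4.33 ± 0.58). Of 9 neutrophil genes 3 fell and 1 rose (median -1.35), the rise being under the 16.4% over all genes tested. The defining gene Ly6g was at 0.135 CPM or less as a group mean. Ngp, the neutrophil gene that rose, was at 13.8 CPM in cKO replicate 2 and 2.63 CPM or less elsewhere, and passed in 1 of the 6 fits with 1 library left out (adjusted p up to 0.128). Among 7 regulatory T-cell genes 1 rose and 1 fell, close to the shares of 16.4% and 16.8% over all genes tested. Among 7 plasma cell genes 3 fell (0 to 4 with 1 library left out). Of 4 tested erythroid genes none passed at an adjusted p under 0.05 by edgeR. Of 5 tested epithelial genes 1 fell, near the 16.8% over all genes tested. This was Cdh1, at 42.8, 52.1 and 76.6 CPM in WT and 9.17, 2.57 and 2.87 CPM in cKO (-3.54 ± 0.54). It did not pass without WT replicate 2 and cKO replicate 3 together.

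Pax5, the B-cell master regulator, was at 0.111, 3.51 and 0.696 CPM in WT and 6.41, 2.08 and 1.89 CPM in cKO (adjusted p = 0.385). Of 11 tested B-cell genes Ighd rose (2.29 ± 0.62, adjusted p = 0.0298, in 1 of 6 fits with 1 library left out, up to 0.0975 without cKO replicate 1) and none fell. As a share of the list, this rise was under the 16.4% over all genes tested. Both tested melanocyte genes fell (0 to 2 with 1 library left out). The pigment gene Pmel was at 4.48, 3.18 and 3.13 CPM in WT and 1.23, 1.04 and 0.529 CPM in cKO (-1.95 ± 0.42). The list's sums in WT, 33.9, 68.9 and 32.1 CPM, were mostly not Pmel. In RPKM, Pmel was at 0.265 to 2.005 in the tumor libraries and 2.21 to 3.13 in spleen, so its level is not particular to tumor. Pmel missed the threshold without WT replicate 1 (0.0517), and the other gene passed in 1 of the 6 such fits (adjusted p up to 0.112, without WT replicate 2). Dct, the defining melanocyte gene, was at 0.111 CPM in WT and 0 in cKO as group means.

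All 4 tested Y-linked genes were lower in cKO (median -1.79). Ddx3y, an RNA helicase of the Y chromosome, was at 95.5, 93.4 and 88.1 CPM in WT and 40.2, 29.3 and 13.4 CPM in cKO (-1.74 ± 0.36). It did not pass without cKO replicate 2 (adjusted p = 0.05). Kdm5d fell by 1.85 and Uty by 1.97 on the log2 scale, and without cKO replicate 2 their adjusted p values were 0.0521 and 0.062. Eif2s3y (-1.41 ± 0.43) passed in 1 of the 6 fits, with an adjusted p up to 0.119. Xist, the X-inactivation RNA of female cells, was at 0.0956 and 0.0787 CPM as group means.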

How the data were processed

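RNA from tumor and spleen libraries was sequenced on an Illumina NovaSeq, per the labels' protocols. The submitters' processing notes name TopHat2 (2.0.6) and the build mm10, while nothing used here names the counting program or its strand setting. The deposited table holds the authors' raw read counts per gene and, beside them, the authors' RPKM values. Here, genes were kept by edgeR's filterByExpr over both groups, libraries were scaled by TMM, and the quasi-likelihood test of edgeR 4.0.16 (R 4.3.3, robust) was run on the counts of the 6 tumor libraries, with Benjamini-Hochberg adjustment over all genes tested and a threshold of 0.05. RPKM values served for levels between genes and, as log2(RPKM + 0.5), for limma-trend (3.58.1). DESeq2 (1.42.0) was another alternative. A floor of 3 counts stood in for groups without reads. Of nonzero counts under 50, 68.8% to 73.3% were even in the tumor libraries. The cause was not tested, so a count may not stand for 1 read pair.

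Samples were grouped by the labels. Gene lists and named genes were chosen with earlier results of these data known. Named were the 14 genes per direction with the widest gap in log2 CPM between the nearest libraries (mean of at least 2), up to 4 called members per list, and a set always given. All other genes named, including list members that did not pass, were chosen after their values were seen. Of the statistics, only the quasi-likelihood test of cKO against WT in the tumor libraries was tried on simulated data. Alternatives were other scalings, no filter, other tests, all 12 libraries in the fit, halved counts, the replicate number as a block, each library left out, and, chosen after seeing the data, WT replicate 2 and cKO replicate 3 left out together. The level of the knocked-out gene is not reported here and served for no check of the genotypes. Some other members of the lists are likewise not reported by name.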

Additional observations from a re-analysis of the deposited data

Results flagged for a closer look

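The effect of the knockout differed between tumor and spleen in 3072 of 16831 genes tested for that difference (18.3%) by the interaction term of edgeR's quasi-likelihood test at an adjusted p under 0.05. The difference, tumor effect minus spleen effect on the log2 scale, was above 0 in 1293 of these genes and below 0 in 1779. Tumor and spleen libraries also differed in the cell type markers given above, and the part of those markers in the difference was not tested.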

How the results depend on the processing

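Genes called in the main test and under an alternative had the same direction in every alternative tried. The count of calls was 5390 with DESeq2's size factors in edgeR, 6528 with DESeq2, 5494 with limma on RPKM, 4656 with no filter on low counts, 6399 with all 12 libraries in the fit and 5470 with halved counts. Of the calls, 61.0% were higher with limma on RPKM and 58.6% with no filter, and limma on RPKM gave 1240 genes at least 2-fold lower. With the replicate number as a block 3659 genes were called, 1698 of them higher. Deviations of same-numbered libraries from their group means correlated at -0.09, -0.03 and 0.13, so the numbers were not taken to pair the samples. With 1 library left out, 2916 to 6459 genes were called, 1449 to 3408 higher and 1310 to 3051 lower. At least 2-fold changed were 1936 to 3592, with 857 to 1742 higher and 1079 to 1850 lower. Without WT replicate 2 and cKO replicate 3 together, 6737 were called. The cause of these differences was not tested. Depth limits what can be said of genes near the floor of 3 counts.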

Other observations

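Chromosome 15 had the highest median log2 fold change of any chromosome with at least 20 tested genes, at 0.13, and 131 of its 574 tested genes were higher in cKO (22.8%) and 90 lower (15.7%). The lowest median among the autosomes and X was that of chromosome 3, at -0.22. Among the more highly expressed genes (mean log2 CPM from 5 upward), the medians of chromosomes 15 and 18 were 0.21 and 0.22.

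The immunoglobulin RNA of WT replicate 3 was concentrated in 1 heavy and 1 light chain segment. Ighv4-1 was at 6256 CPM there, against 92.6 and 7.27 CPM in WT replicates 1 and 2 and 0.489 CPM or less in cKO. Igkv1-88 was at 3223 CPM, against 59.2 and 0.0549 CPM in the other WT libraries and 0.489 CPM or less in cKO. These genes were chosen after their values were seen.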
